A study of Mus musculus with 6 samples.

Results

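Splicing factors were examined as a group of 96 genes in RNA-seq libraries of sorted kidney cells from mice labelled Trf1+/+ or Trf1flox/flox. They were taken by name from the 12125 genes of the deposited table. Their symbols start with Srsf, Snrp, Sf3a, Sf3b, Hnrnp, Prpf, U2af or Rbm followed by a digit. This name rule was chosen with earlier results of these data known. A pseudogene symbol (1 row) ending in -ps was left out. The group comprised 9 SR protein genes (Srsf), 12 genes of U snRNP proteins (Snrp), 9 SF3 genes, 20 hnRNP genes, 13 PRPF genes, 30 RBM genes and 3 U2AF genes.

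Pre-mRNA splicing removes introns through the spliceosome, a machine built anew on each intron from small nuclear RNAs and proteins. The U1 snRNP pairs with the 5′ splice site, U2AF reads the end of the intron, SF3A and SF3B anchor the U2 snRNP at the branch point, and PRPF proteins belong largely to the U4/U6.U5 tri-snRNP and to the active complex. SR proteins mostly bind exons and favour their inclusion, whereas many hnRNP proteins repress nearby splice sites, and the RBM genes share an RNA-binding motif rather than a common role in splicing.

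All mice carried Col1a2-CreERT2, a Cre recombinase driven by a collagen promoter and switched on by tamoxifen, and the KFP reporter, a red fluorescent protein expressed after Cre recombination. The 3 control libraries were labelled Trf1+/+; Col1a2-CreERT2 and the other 3 Trf1flox/flox; Col1a2-CreERT2, with floxed alleles of *Terf1*, the gene of the telomere protein TRF1. Male and female mice aged 6 to 8 weeks at the start received intraperitoneal tamoxifen 3 times a week for 8 weeks, controls included, and the sex behind each library is not given in the sources used here. Kidney cells were sorted with antibodies to CD29 and to KFP, and each library was made from 500 cells. Whether the cells sequenced carried both markers is not stated. The libraries are numbered 1 to 3 here within each genotype, in the order of the deposited samples. These numbers are not in the labels and pair no mice, and values are listed below in that order.

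The libraries held between 10263382 and 12248797 reads on the listed genes, and a read was worth 0.689 to 1.09 normalized counts. Trf1+/+ replicate 1 stood apart, with 43.8% of all genes at no more than 3 reads (called the floor here) against 8.37% to 29.8% in the other 5 libraries. *Terf1* stood at 0.891, 253 and 235 normalized counts under the label Trf1+/+ and at 110.0, 7.65 and 12.4 under Trf1flox/flox, so Trf1+/+ replicate 1 (1 read) and Trf1flox/flox replicate 1 (128 reads) went against their labels. Genotypes below are therefore those of the labels. The cell type label was checked as well. Of 12 fibroblast markers 3 were listed in the table, with a summed level of 1.66 to 105 normalized counts in Trf1+/+ and 15.5 to 102 in Trf1flox/flox libraries, and *Col1a2* was at the floor in all 6. The 10 proximal tubule markers summed to 14176 to 82129 and 15704 to 100580, and the 6 markers of the loop of Henle and distal tubule to 78775 to 127310 and 58724 to 148140. These cells are therefore called sorted kidney cells, and fewer cells of a type cannot be told apart from less RNA per cell in such bulk libraries.

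Promoter sequences of splicing factor genes are shown first, since these genes share a feature that their names did not select. RefSeq promoters on GRCm38.p6, reaching from 250 bases before to 50 bases after each transcription start, were matched for 80 of the 96 genes (104 promoters). They held a median of 24 CpG dinucleotides in 300 bases, and 90.4% held at least 10. Over the promoters of all genes of the table the median was 20 and 78.2% held at least 10, and over all RefSeq promoters the median was 7 and the share 43.5%. The letters CCGGAAGT, the core bound by ETS factors, occurred on either strand in 11.5% of the splicing factor promoters, 8.32% of those of the table and 3.89% of all promoters. The CCAAT box (letters CCAAT) occurred in 47.1%, 37.6% and 37.4%, and the TATA box letters TATAAA in 10.6%, 7.55% and 13.6%. Such matches are descriptions of letters, not of binding.

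Promoters of 3 genes that recur below are printed. *Rbm43* had the largest log2 difference between genotypes of the 90 tested splicing factor genes. *Srsf6* and *Srsf10* are SR genes that lay in opposite directions. Each promoter reads 5′ to 3′ on the gene's strand, with CpG dinucleotides in capitals. The first of the RefSeq promoters of *Rbm43* (chr2:51935114-51935413, minus strand) held 11 and its other promoter, which is not printed, 21. That of *Srsf6* (chr2:162931258-162931557, plus strand) held 45, and that of *Srsf10* (chr4:135855821-135856120, plus strand) 38.
Rbm43: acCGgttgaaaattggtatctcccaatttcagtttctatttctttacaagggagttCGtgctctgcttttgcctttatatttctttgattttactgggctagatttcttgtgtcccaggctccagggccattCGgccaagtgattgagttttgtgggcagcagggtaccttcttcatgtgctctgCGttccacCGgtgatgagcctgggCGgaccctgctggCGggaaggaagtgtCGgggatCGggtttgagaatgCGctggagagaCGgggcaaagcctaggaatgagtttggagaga
Srsf6: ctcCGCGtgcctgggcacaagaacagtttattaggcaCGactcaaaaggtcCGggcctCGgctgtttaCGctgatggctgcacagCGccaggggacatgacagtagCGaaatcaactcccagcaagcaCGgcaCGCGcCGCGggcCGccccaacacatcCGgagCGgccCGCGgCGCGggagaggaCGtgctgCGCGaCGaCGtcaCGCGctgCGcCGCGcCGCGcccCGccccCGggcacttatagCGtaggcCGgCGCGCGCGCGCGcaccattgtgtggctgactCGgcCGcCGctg
Srsf10: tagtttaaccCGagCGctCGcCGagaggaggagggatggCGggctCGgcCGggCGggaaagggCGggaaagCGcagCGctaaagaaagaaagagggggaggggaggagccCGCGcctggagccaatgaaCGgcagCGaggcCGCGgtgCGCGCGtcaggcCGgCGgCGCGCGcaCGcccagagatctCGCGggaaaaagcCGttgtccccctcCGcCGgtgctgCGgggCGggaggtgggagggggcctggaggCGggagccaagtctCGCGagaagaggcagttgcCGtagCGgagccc

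Across the whole group, expression was broad but uneven between libraries. Of the 96 genes, 56 were above the floor in all 6 libraries, and 40 (41.7%) were at the floor in at least 1 library, against 58.8% of all genes of the table. The group took 0.526%, 0.486% and 0.488% of the reads in Trf1+/+ and 0.592%, 0.408% and 0.598% in Trf1flox/flox libraries, so the genotypes overlapped in the total read share of splicing factors. The median normalized count of a splicing factor gene was 205, 291 and 277 in Trf1+/+ and 262, 297 and 268 in Trf1flox/flox libraries.

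Levels of different genes were compared per kilobase of annotated exon, as the median over the 6 libraries, with all exons of a gene joined. On this scale the median gene of the SR family stood at 156 normalized counts per kilobase, that of the snRNP family at 127, SF3 at 85.7, hnRNP at 76.1, PRPF at 27.6, RBM at 23.5 and U2AF at 11.4. *Hnrnpk*, which encodes a protein binding C-rich RNA, was highest at 601 per kilobase, followed by *Rbm39* at 567 and *Snrpb* at 513. *Rbm39* encodes a U2AF-related splicing coactivator, and *Snrpb* the SmB protein of the Sm ring carried by the spliceosomal snRNPs. *Hnrnpa2b1* stood at 407 and *Srsf5* at 401. These values are lower where the annotation holds long, rarely used exons, so their order is approximate.

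The question of the design, whether deletion of *Trf1* goes with other levels of these genes, was addressed with limma on log2(normalized count + 1). Of the 96 genes, 90 reached 10 normalized counts in 3 or more libraries and were tested, and *Prpf19*, *Rbm12b1*, *Rbm20*, *Rbm38*, *Rbm4* and *Sf3a2* did not. No splicing factor gene passed an adjusted p of 0.05 (smallest 0.673 from limma), nor did any gene of the table in limma (0% of 9966 tested, 454 at an unadjusted p under 0.05) or in edgeR, whereas DESeq2 called 58 genes. At an unadjusted p under 0.05, 2 of the 90 genes differed (2.22%), against 4.56% of all tested genes. Both, *Rbm43* and *Rbm14*, were higher in Trf1flox/flox, where the background of genes called in that direction was 3.54%. *Rbm14* reached 10 normalized counts in Trf1flox/flox libraries alone, so the filter had set its direction, as it had for 128 of all tested genes, against 21 in the other direction. By edgeR and by DESeq2 on the recovered reads, 0 splicing factor genes reached an unadjusted p under 0.05. The share of all tested genes at that threshold by edgeR or DESeq2 is not given here, so this count is not set against it.

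Over the 90 genes, 53 were higher and 37 lower in Trf1flox/flox, with log2 differences from -2.66 to 5.56 and a median of 0.31, beside a median of 0.20 and 55.9% higher over all tested genes. For 9 of the 90 (10%) the libraries of the genotypes did not overlap, against 8.68% of all tested genes. Of these, 6 were higher in Trf1flox/flox (background 5.35%) and 3 were lower (background 3.33%). Rescaling the libraries to the same upper quartile moved the median of all tested genes to 0.39 and that of the splicing factors to 0.53, while edgeR gave -0.04 and -0.01. The counts of splicing factors called or set apart by genotype were thus near those of the table as a whole.

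**Figure D1:**
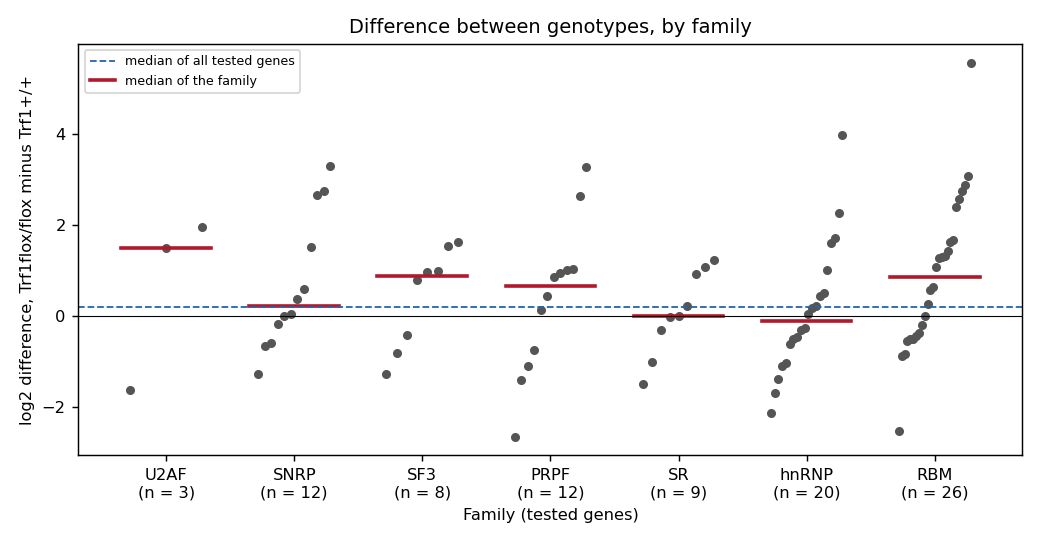
Points are the 90 tested splicing factor genes by family, with the log2 difference between genotypes on the y axis, red lines for family medians and the dashed line for the median of all tested genes (0.20). Family medians run from -0.12 (hnRNP) to 1.48 (U2AF), and each of the 7 families has genes on both sides of 0.

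The 3 U2AF genes encode the factor that recognises the 3′ end of the intron. *U2af1*, the small subunit that reads the AG at the splice site, had 3.56, 254 and 247 normalized counts with Trf1+/+ against 70.5, 328 and 267 with Trf1flox/flox. *U2af2*, the large subunit that binds the polypyrimidine tract, had 1.78, 56.3 and 37.4, and 104.8, 90.7 and 34.5. In both genes the lowest value was that of Trf1+/+ replicate 1 and the remaining libraries overlapped. *U2af1l4*, a paralog of the small subunit, had 98.9, 23.2 and 1.97, and 1.72, 4.37 and 15.2, a log2 difference of -1.64 (adjusted p = 0.996 from limma). The family median of 1.48 became -0.24 without Trf1+/+ replicate 1 and Trf1flox/flox replicate 2, the pair of libraries with most genes at the floor. Of the exonic bases of *U2af1l4*, 65.6% overlap another gene on the same strand, and 21.7% of the 50-base words of *U2af1* recur in other genes.

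Of the 12 genes of U snRNP proteins 7 were higher and 5 lower in Trf1flox/flox, with a median log2 difference of 0.20. *Snrpb* had 1012, 1100.3 and 629 normalized counts with Trf1+/+ against 1017, 1202 and 565 with Trf1flox/flox. Its means were 914 ± 251 and 928 ± 328 (SD, n = 3), a log2 difference of -0.01 that became positive (0.21) when libraries were scaled to the same upper quartile. *Snrpa*, the A protein of the U1 snRNP, had 1550, 419 and 909, and 575, 169 and 423, a log2 difference of -1.28 (adjusted p = 0.996 from limma) with overlapping groups. Of its exonic bases 11% overlap *BC024978* on the opposite strand.

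*Snrpn*, which encodes SmN, an imprinted counterpart of SmB known mainly from brain, had 0, 125 and 305 normalized counts with Trf1+/+ against 323, 326 and 343 with Trf1flox/flox. The groups did not overlap, although the highest Trf1+/+ library and the lowest Trf1flox/flox library were close, and they overlapped under upper quartile scaling. The log2 difference of 3.29 (standard error 2.19, adjusted p = 0.996 from limma) rested on the 0 of Trf1+/+ replicate 1 and was 0.75 without it. Of the exonic bases of *Snrpn*, 27.3% overlap *Snurf*, which shares its transcript, or another gene on the same strand, and reads there cannot be assigned to one of them. The other core Sm genes were uneven in that library, where *Snrpg* had 0 reads and *Snrpd1* (856 normalized counts) and *Snrpd3* (1121) had the highest values of all 6.

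Of the 8 tested SF3 genes 5 were higher and 3 lower, with a median log2 difference of 0.87 in limma and of -0.50 by edgeR. *Sf3b1*, the subunit that clasps the branch-point helix, had 902, 2284 and 2584 normalized counts with Trf1+/+ against 2188, 608 and 1667 with Trf1flox/flox. *Sf3b2*, its partner in the U2 snRNP, had 72.1, 599 and 626, and 743, 507 and 570. Apart from the low value in Trf1+/+ replicate 1, *Sf3b2* stayed within a narrow band, and the log2 difference of 0.99 became -0.03 without that library. *Sf3b6*, which contacts the branch-point adenosine, had 1072, 712 and 936, and 570, 292 and 793, a log2 difference of -0.81 (adjusted p = 0.996 from limma). *Sf3a1* ranged from 0.829 normalized counts (1 read) in Trf1+/+ replicate 2 to 788 in replicate 1 of the same genotype, a range wider than the distance between its group means of 283 and 152.

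Of the 12 tested PRPF genes 8 were higher and 4 lower, with a median log2 difference of 0.64 in limma that became -0.69 by edgeR and -1.02 without Trf1+/+ replicate 1. *Prpf8*, the scaffold at the centre of the spliceosome, had 0.891, 432 and 295 normalized counts with Trf1+/+ against 265, 530.0 and 413 with Trf1flox/flox. *Prpf4b*, a kinase of the tri-snRNP, had 326, 645 and 1137, and 656, 233 and 318. The genotypes overlapped in both genes, and *Prpf8* had 1 read in Trf1+/+ replicate 1.

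*Prpf40b*, a relative of a yeast U1 snRNP protein, had 0.891, 45.6 and 52.2 normalized counts with Trf1+/+ against 124, 531 and 61.3 with Trf1flox/flox, without overlap. Its log2 difference was 3.26 (standard error 1.63, adjusted p = 0.996 from limma) and 1.69 without Trf1+/+ replicate 1. *Prpf38b*, a relative of a yeast factor of spliceosome activation, had the opposite sign, with 890, 283 and 815 against 297, 269 and 256 normalized counts. The Trf1flox/flox libraries of *Prpf38b* lay within a band that reached into the Trf1+/+ range at its lower end. *Prpf19*, an E3 ubiquitin ligase of the active complex that did not pass the filter, had 26.7, 139 and 1.97, and 0, 0 and 5.51.

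The 9 SR genes were the most even of the families. None was at the floor in any library, and the SD of log2 values within a genotype had a median of 0.48 over the SR genes, against 1.40 over the 90 splicing factor genes and 2.17 over all tested genes. SR genes were also the most abundant by count, with a median of mean normalized counts of 791, against 292 over the splicing factor genes and 151 over all genes of the table. The part of this abundance in the smaller spread was not tested. The median log2 difference of the family was -0.01, with 4 genes higher and 5 lower.

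**Figure D2:**
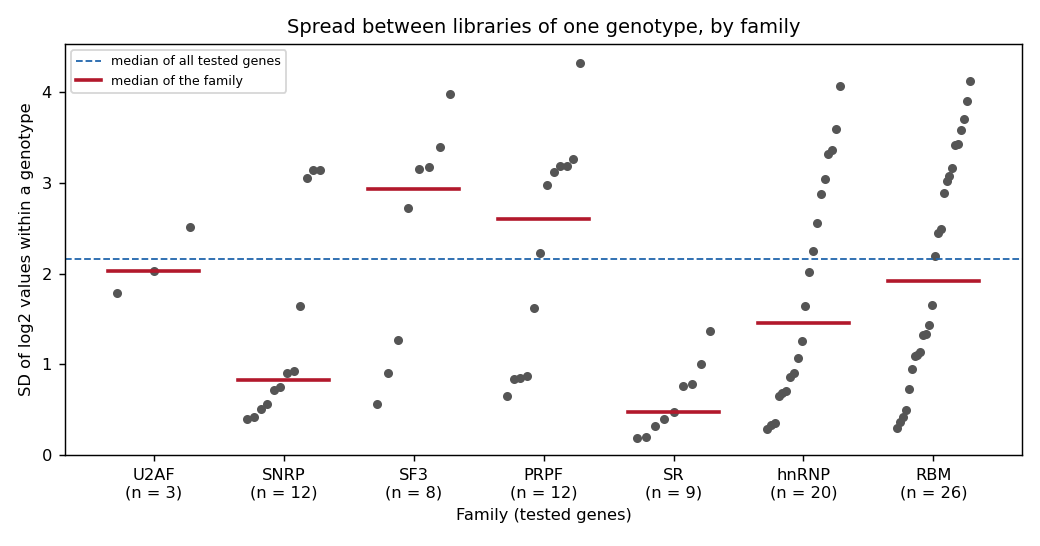
Points are the 90 tested splicing factor genes by family, with the SD of log2(normalized count + 1) within a genotype on the y axis, red lines for family medians and the dashed line for the median of all tested genes (2.17). The SR median (0.48) is the lowest, and the SF3 median (2.94) is the highest of the 7 families.

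*Srsf3*, the smallest SR protein, had 726, 631 and 601 normalized counts with Trf1+/+ against 532, 684 and 737 with Trf1flox/flox. Its highest library exceeded its lowest by 1.38-fold, and the means of 653 ± 65.1 and 651 ± 106 (SD, n = 3) were nearly equal. *Srsf11*, an SR-related protein associated with U2AF, had 1287, 1565 and 1469, and 1957, 1235 and 1128. *Srsf1*, the founding member, had 488, 502 and 401, and 335, 825 and 557. *Srsf2*, the factor also known as SC35, had 1039.5, 603 and 1121, and 837, 757 and 568, and 25.3% of its exonic bases overlap *Mettl23* or *Mfsd11* on the opposite strand. The genotypes overlapped in all 4 genes. The sign of the small log2 differences of *Srsf3* (-0.01) and *Srsf11* (-0.04) turned under upper quartile scaling (0.20 and 0.18), and that of *Srsf1* (0.22) turned without the pair of libraries with most genes at the floor (-0.05).

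*Srsf6* and *Srsf10* were the SR genes whose genotypes did not overlap. *Srsf6* had 605, 572 and 469 normalized counts with Trf1+/+ against 1142, 894 and 1063 with Trf1flox/flox, and every Trf1flox/flox value lay above every Trf1+/+ value. The means were 549 ± 70.8 and 1033 ± 127 (SD, n = 3). The log2 difference was 0.91 (standard error 0.72, unadjusted p = 0.253, adjusted p = 0.996 from limma), and leaving out single libraries moved it no further than 0.80 and 1.01. The SD of *Srsf6* within a genotype was 0.19 on the log2 scale, whereas the standard error from limma also draws on the spread of all other genes.

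*Srsf10*, which can act as a repressor when dephosphorylated, lay the other way. It had 1275, 1234 and 540.0 normalized counts with Trf1+/+ against 530.1, 170.5 and 418 with Trf1flox/flox, with Trf1+/+ replicate 3 just above the highest Trf1flox/flox library. Its log2 difference was -1.49 (adjusted p = 0.996 from limma). *Srsf5*, the family's most abundant gene, ranged from 330.4 to 3203 within Trf1+/+ and from 1096 to 4605 within Trf1flox/flox libraries, so its log2 difference of 1.07 was smaller than the spread between libraries of a genotype.

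**Figure D3:**
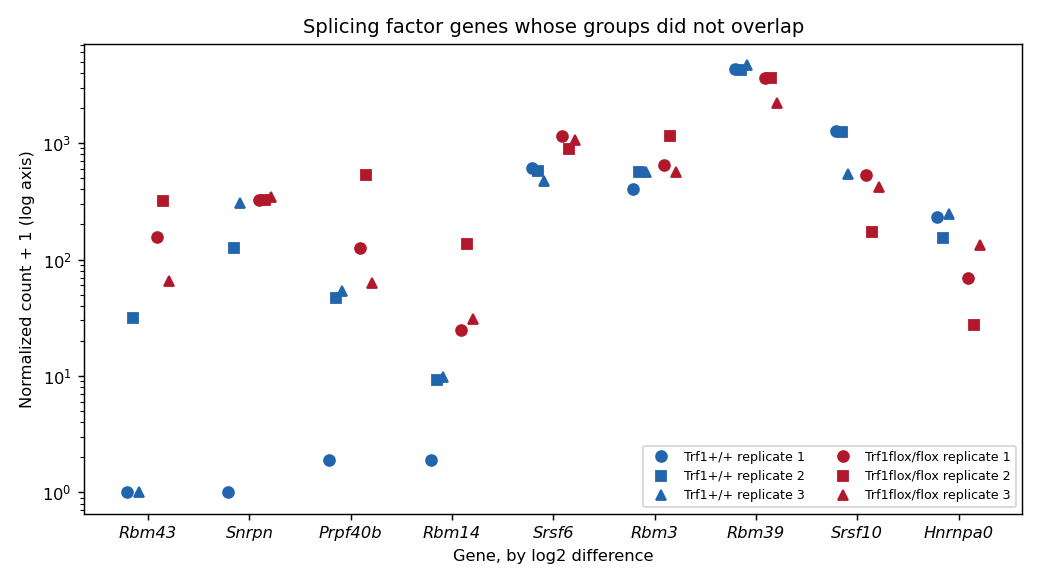
Normalized counts plus 1 (log axis) of the 9 splicing factor genes whose genotypes did not overlap, ordered by log2 difference. Blue points are Trf1+/+ and red points Trf1flox/flox libraries, with a symbol for each replicate. In *Rbm43*, *Snrpn*, *Prpf40b* and *Rbm14* the lowest blue points are at 0 or 1 read, whereas *Srsf6*, *Rbm3*, *Rbm39*, *Srsf10* and *Hnrnpa0* had reads above the floor in every library.

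Of the 20 hnRNP genes 10 were higher and 10 lower in Trf1flox/flox, with a median log2 difference of -0.12. *Hnrnpk* had 8193, 2562 and 2672 normalized counts with Trf1+/+ against 4415, 5262 and 3358 with Trf1flox/flox. The highest and the lowest library of *Hnrnpk* were both Trf1+/+. *Hnrnpa2b1*, whose proteins bind and transport RNA, had 2392, 2805 and 2555, and 3579, 3359 and 2178. *Hnrnpu*, a large protein of the nuclear scaffold, had 2595, 1786 and 1769.7, and 1371, 1801 and 1122. Both stayed within 2.31-fold over the 6 libraries and overlapped between genotypes.

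*Hnrnpc*, which binds uridine tracts and blocks cryptic exons, had 3213 normalized counts in Trf1+/+ replicate 1 and 570.0 to 1021 in the other 5 libraries. *Hnrnpa1*, a classical splicing repressor, had 3.56, 329.8 and 330.1, and 0, 234 and 217, with 28.2% of its 50-base words found in other genes. The low values of *Hnrnpa1* thus fell in 1 library of each genotype. *Hnrnpa0*, an hnRNP that binds AU-rich RNA, had 229.8, 152 and 244, and 68.7, 26.2 and 133. All Trf1+/+ values of *Hnrnpa0* exceeded all Trf1flox/flox values, although not under upper quartile scaling, with a log2 difference of -1.70 (standard error 0.91, unadjusted p = 0.11, adjusted p = 0.996 from limma). *Hnrnph2*, which binds G-rich runs, had the largest positive difference of the family at 3.96, with 0, 12.4 and 580.4, and 127, 499 and 462, and overlapped between genotypes.

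Of the 26 tested RBM genes 17 were higher and 9 lower, with a median log2 difference of 0.84. Of all 30 RBM genes, 15 were at the floor in Trf1+/+ replicate 1, which makes a positive difference more likely by construction. Library medians of the tested RBM genes had a log2 SD of 1.45 within a genotype, wider than the median difference. *Rbm43*, a poorly known RNA-binding motif gene on chromosome 2 (ENSMUSG00000036249, 51924448 to 51935163 on GRCm38, minus strand), had 0, 30.7 and 0 normalized counts with Trf1+/+ against 156, 319 and 64.8 with Trf1flox/flox. Every Trf1flox/flox value was above every Trf1+/+ value. The means were 10.2 ± 17.7 and 179.8 ± 129 (SD, n = 3), and the log2 difference was 5.56 (standard error 1.61, unadjusted p = 0.0132, adjusted p = 0.673 from limma).

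The size of the *Rbm43* difference depended on the value added to low counts, since it was 6.22 after adding 0.5 and 3.32 after adding 10. Leaving out single libraries gave 4.73 to 7.22. Its unadjusted p was 0.161 by edgeR, 0.0592 by DESeq2 and 0.0889 in limma without the pair of libraries with most genes at the floor.

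*Rbm14*, a coactivator found in paraspeckles, had 0.891, 8.29 and 8.87 normalized counts with Trf1+/+ against 24.1, 134 and 29.6 with Trf1flox/flox. The groups did not overlap, and the log2 difference was 3.08 (standard error 1.14, unadjusted p = 0.0345, adjusted p = 0.996 from limma). Without Trf1+/+ replicate 1 it was 2.30 with an unadjusted p of 0.0747, and the unadjusted p was 0.0379 without the filter. The filter had set the direction and the separation of *Rbm14*, since it reached 10 normalized counts in Trf1flox/flox libraries alone. With any Trf1flox/flox library left out, *Rbm14* no longer passed the filter and was not tested. Of the exonic bases of *Rbm14*, 18.6% overlap the readthrough gene *Gm21992* on the same strand. *Rbm12b2* had the largest negative difference of the family at -2.53, with 79.3, 139 and 30.5 against 3.44, 62.3 and 5.51 and with overlapping groups, and it shares 56.6% of its 50-base words with other genes.

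*Rbm39* and *Rbm3*, abundant RBM genes, were set apart by genotype by small margins. *Rbm39* had 4336, 4232 and 4652 normalized counts with Trf1+/+ against 3646, 3624 and 2196 with Trf1flox/flox, a log2 difference of -0.52 (adjusted p = 0.996 from limma), and the groups overlapped under upper quartile scaling. *Rbm3*, known for its induction by cold, had 403, 564 and 559, and 649, 1141 and 565, so that the closest libraries of the genotypes differed by less than 1 normalized count. Its log2 difference was 0.57 (adjusted p = 0.996 from limma). *Rbm25*, a U1-associated regulator, ranged from 499.6 to 2164 within Trf1+/+ and from 169 to 1573 within Trf1flox/flox libraries, with no separation.

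Values at the floor moved with the direction of many of these differences. In Trf1+/+ replicate 1, 30 of the 96 genes (31.2%) were at the floor, among them 15 RBM and 5 PRPF genes, against 1 to 14 genes in each of the other 5 libraries. These 30 genes had a median of 154 normalized counts as the mean of the other 5 libraries. Among the 26 of them that were tested, 24 were higher in Trf1flox/flox, with a median log2 difference of 1.82. Among the 64 tested genes above the floor there, 29 were higher and the median was -0.11. A value of 0 in a Trf1+/+ library makes a positive difference more likely by construction, so these medians are descriptions.

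The share of splicing factors lost in that library was near that of other genes. Of the 77 splicing factor genes whose other 5 libraries averaged 100 normalized counts or more, 24.7% were at the floor in Trf1+/+ replicate 1, against 27.1% of 7305 such genes of the table. The same library also held the highest value of 23 of the 96 genes (24.0%, against 23.5% of all genes of the table). Without it, the median log2 difference of the splicing factor genes was 0.02, and that of all tested genes was -0.02.

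**Figure D4:**
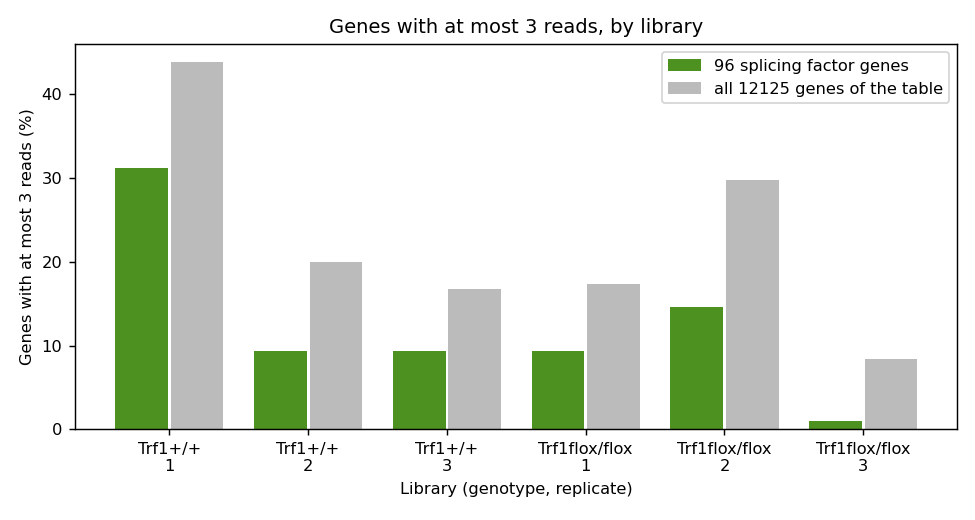
Bars give the share of genes with no more than 3 reads in each library, green for the 96 splicing factor genes and grey for all 12125 genes of the table. In all 6 libraries the green bar is lower than the grey bar, and both are highest in Trf1+/+ replicate 1 (31.2% and 43.8%).

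Genes of splicing that the name rule did not take were examined beside these. Of 115 listed genes 114 were in the table and 109 were tested. Of these 52 were higher and 57 lower in Trf1flox/flox, with a median log2 difference of -0.05, and 4 reached an unadjusted p under 0.05 (3.67%, against 4.56% of all tested genes). Among these 4, *Alyref* and *Cwc22* passed the filter through Trf1flox/flox libraries alone, so the filter had set their direction and separation. None of the 109 passed the adjusted threshold in limma (smallest 0.128). The genotypes did not overlap in 8 of the 109 (7.34%, against 8.68% of all tested genes), of which 4 were higher and 4 lower.

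Among 60 tested genes of the core spliceosome, 27 were higher and 33 lower. *Cwc22*, which recruits the exon junction complex to the spliceosome, had 0, 9.11 and 0 normalized counts with Trf1+/+ against 49.0, 145 and 46.9 with Trf1flox/flox (unadjusted p = 0.00603, adjusted p = 0.445 from limma). *Usp39*, a tri-snRNP protein, had 102, 433 and 422, and 0, 0 and 103 (unadjusted p = 0.0272 from limma). *Snrnp48*, of the U11/U12 snRNP of the minor spliceosome, was named after its values were seen and had 1378, 1032 and 842 against 269.8, 351 and 154 (unadjusted p = 0.0349 from limma). *Cwc22* and *Snrnp48* did not overlap between genotypes, whereas the lowest Trf1+/+ and the highest Trf1flox/flox value of *Usp39* overlapped (102.4 and 103.4). *Cwc22*, and *Alyref* described next, reached 10 normalized counts in Trf1flox/flox libraries alone, so the filter had set their direction too, and neither was tested with a Trf1flox/flox library left out.

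Of 13 tested genes of the exon junction complex and mRNA export, 7 were higher and 6 lower. *Alyref*, the adaptor that hands spliced mRNA to the export machinery, had 0.891, 0.829 and 0 normalized counts with Trf1+/+ against 67.9, 157 and 48.9 with Trf1flox/flox. It was at the floor in every Trf1+/+ library and in no Trf1flox/flox library, with the smallest unadjusted p of the splicing genes (0.000471, adjusted p = 0.128 from limma). Since the filter had set the direction of *Alyref*, this p-value gives no support for that direction. The fitted log2 difference of *Alyref* depended on the value added to low counts, with 5.76 after adding 1 and 3.12 after adding 10. *Rnps1*, a protein of the exon junction complex, had 741, 899.8 and 567, and 15.5, 165 and 348, lower in every Trf1flox/flox library (unadjusted p = 0.0672 from limma).

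Of the 6 kinases of SR proteins 3 were higher and 3 lower. *Clk3* had 539.8, 367 and 422 normalized counts with Trf1+/+ against 203, 276 and 73.0 with Trf1flox/flox, without overlap (unadjusted p = 0.144 from limma), and 15.2% of its exonic bases overlap *Edc3* on the opposite strand. *Clk2* had 0, 0.829 and 32.5, and 144, 0 and 107. Of 30 tested other regulators 15 were higher and 15 lower, and 0 reached an unadjusted p under 0.05 in limma. *Ptbp1*, the polypyrimidine tract binding repressor, had 0, 0.829 and 314, and 649, 192 and 152, with a log2 difference of 5.01 (unadjusted p = 0.0717 from limma) and 20.7% of its exonic bases shared with genes on the opposite strand. *Celf1*, which binds GU-rich RNA, had 1056, 285 and 553, and 238, 74.3 and 382, with overlapping groups.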

How the data were processed

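RNA of 500 sorted cells per library was reverse transcribed from oligo(dT) primers with a template switch and amplified by PCR, without strand information. Per the study's methods, the authors trimmed the reads with bbduk, aligned them with TopHat 2.0.10 and Bowtie 1.0.0 (SAMtools 0.1.19) to GRCm38 with GENCODE vM20 genes, and counted them with HTSeq 0.6.1. The submitters' processing notes name FastQC 0.11.7, DESeq2 and the build GRCm39, and the difference between the builds could not be settled. The methods give a second-strand library type for TopHat although the kit keeps no strand, and the strand setting of the counting is not given in the sources used here. For 11 of the 96 genes, 10% or more of the exonic bases overlap a gene on the opposite strand, and unstranded counting cannot tell such reads apart. The deposited signal values are normalized counts, in which the authors divided the reads of each gene by a size factor per library. Whole reads were recovered for 100% of the values (within 0.01 read).

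The members and gene lists were chosen with earlier results of these data known. The 6 libraries, 3 per genotype, were grouped by the genotype label. Genes reaching 10 normalized counts in 3 or more libraries were tested on log2(normalized count + 1) with limma 3.58.1 in R 4.3.3 (two-sided moderated test without trend), with Benjamini-Hochberg adjustment over all 9966 genes. The study states 3 mice per genotype. In limma, p-values weigh a difference against the spread between these libraries, with each gene's variance drawn toward that of all tested genes. Reads carry no molecular identifiers, so the floor of 3 reads covers counting error only. Alternatives were pseudocounts of 0.5 and 10, no filter, upper quartile scaling (0.75), limma with trend, edgeR 4.0.16 (quasi-likelihood, TMM) and DESeq2 1.42.0 on the recovered reads, each library left out, and both libraries with most genes at 0 left out. The fits were also run on simulated counts with a far smaller spread between libraries than these data have. That run checks the code and says nothing on how the fits behave here.

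Named genes were those with an unadjusted p under 0.05, in each family the gene with the largest positive and the largest negative statistic and the most abundant by count, a set of well-known members, the 2 smallest p of each list of other splicing genes, and any gene past an adjusted p of 0.05 in limma, edgeR or DESeq2. *Rbm3* and *Rbm39* belonged to that set, and the other genes without overlap were also taken by this rule. A gene that this rule took is not reported here. *Snrpg*, *Snrpd1*, *Snrpd3* and *Snrnp48* were named after their values were seen. Gene positions, exon lengths, overlaps and shared 50-base words came from GENCODE M21 (GRCm38), which matched all 96 symbols, and promoters from RefSeq (GRCm38.p6).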

Additional observations from a re-analysis of the deposited data

How the results depend on the processing

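No splicing factor gene passed an adjusted p of 0.05 in any setting run. The number at an unadjusted p under 0.05 in limma was 2 (2.22%, against 4.56% of all tested genes). It was 1 with a pseudocount of 10, 1 with a trend in limma, 0 by edgeR and 0 by DESeq2, and 1 to 4 with a library left out (most without Trf1+/+ replicate 3). Without both libraries with most genes at 0 the number was again 2, but *Rbm43* was not among them and *Rbm14* did not pass the filter. In limma the genes, named after their values were seen, were *Prpf18* (log2 difference 5.62, unadjusted p = 0.0181) and *Snrpd1* (2.72, unadjusted p = 0.0468). Over all genes the adjusted count was 0, and 58 by DESeq2. For the other splicing genes the count of 4 became 8 with a pseudocount of 10, 2 by edgeR, 2 by DESeq2, 0 without both libraries with most genes at 0, and 0 to 5 with a library left out (0 without Trf1flox/flox replicate 1). The share of all genes called at an unadjusted p under 0.05 in these alternative settings is not given here. These counts therefore cannot be set against the table as a whole. The 9 genes without overlap became 14 to 21 with a library left out (16.1% to 23.6%, against 14.6% to 25.5% of all tested genes). Without both libraries with most genes at 0 they became 30 of 85 (35.3%, against 28.8% of all genes). Fewer libraries make separation more frequent by construction. Of the 9, 8 were among these 30, and *Rbm14* was not tested there. With upper quartile scaling 6 of the 9 were among 7 of 90 (7.78%, against 8.76% of all tested genes). *Hnrnpa0*, *Rbm39* and *Snrpn* were lost there and *Hnrnpu* was gained.

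The median log2 difference of the splicing factors (0.31) was 0.21 with a pseudocount of 10, 0.53 with upper quartile scaling, -0.0051 by edgeR, -0.019 by DESeq2, 0.023 without both libraries, and 0.025 (without Trf1+/+ replicate 1) to 0.39 with a library left out. That of the other splicing genes (-0.05) was 0.16 with upper quartile scaling, -0.21 by edgeR and by DESeq2, and -0.23 to 0.16 with a library left out. SF3 had 0.35 with a pseudocount of 10, -0.50 by edgeR, -0.53 by DESeq2, -0.10 without both libraries, and -0.36 (without Trf1+/+ replicate 1) to 1.36. PRPF had 0.10, -0.69, -0.63 and -0.45 in the same order, and -1.02 (without Trf1+/+ replicate 1) to 0.58. SR had 0.20 with upper quartile scaling and -0.056 to 0.13 with a library left out. Without both libraries U2AF had -0.24 and the U snRNP genes -0.045.

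Signs of these genes turned. With upper quartile scaling *Snrpb* was 0.21, *Srsf3* 0.20 and *Srsf11* 0.18. By edgeR *Snrpb* was 0.019, *Srsf3* 0.034, *Srsf11* 0.0066 and *Sf3a1* -0.81. By DESeq2 *Snrpb* was 0.034, *Hnrnpk* -0.019, *Srsf3* 0.0097, *Srsf11* 0.0087 and *Sf3a1* -0.87. Without both libraries *U2af1* was -0.86, *Srsf1* -0.054, *Srsf3* 0.023, *Hnrnpc* 0.39, *Prpf8* -0.11 and *Rbm25* 1.01. With a library left out *U2af1* ran from -0.45 to 2.46, *Snrpb* from -0.25 to 0.32, *Sf3b1* from -0.90 to 0.13, *Sf3b2* from -0.032 to 1.52, *Sf3a1* from -1.34 to 3.03, *Srsf1* from -0.094 to 0.55, *Srsf3* from -0.11 to 0.13, *Srsf11* from -0.28 to 0.11, *Hnrnpk* from -0.13 to 0.71, *Hnrnpa1* from -3.16 to 1.51, *Hnrnpc* from -0.84 to 0.40 and *Rbm25* from -1.16 to 0.44. The cause of these changes was not tested. With 3 libraries per genotype and 500 cells each, genes near the floor have wide errors. No paired analysis was possible because the labels name no pairs of libraries.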
